A study of Mus musculus with 4 samples.

Results

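The liver transcripts described here are 161 long intergenic non-coding RNAs (lincRNAs) out of 55487 gene identifiers measured in the livers of wild-type (WT) mice and of mice labelled PA. They were chosen by annotation and by level: each carries the lincRNA biotype in GENCODE vM21 and reached a deposited level of at least 1 TPM (a level scaled for transcript length and for the library) in both WT or in both PA libraries. H19 and Meg3 were left out by rule. Of the 5614 lincRNA genes in the tables, 5451 stayed below this level. The level was reached in all 4 libraries by 108 of the lincRNAs, in both WT libraries but not both PA libraries by 37, and in both PA libraries but not both WT libraries by 16. LincRNAs that entered through 1 group lean toward it by choice, so these numbers describe the choice and nothing else.

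The animals were 4 female FVB mice aged 11 weeks, 2 in each group, and polyA RNA was taken from frozen liver. PA mice are hypomorphic Pcca-/- (A138T) animals per the labels. Pcca encodes a subunit of the mitochondrial propionyl-CoA carboxylase, and how the A138T form is carried is not given in the sources used here. WT mice share the background, sex, age and tissue. The series title places the comparison among histone H4K16 acylations and the transcriptional response to a metabolic perturbation, and the design text describes the replicates as biological.

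LincRNAs are transcribed, spliced and often polyadenylated like messenger RNAs, but they lie between coding genes and are not annotated as coding. Some act in the nucleus, where Xist coats and silences an X chromosome and Neat1 builds paraspeckles. Others are hosts from which small nucleolar RNAs (snoRNAs) or microRNAs are cut, and a few bind proteins or microRNAs in the cytoplasm. In liver, lincRNAs have been tied to lipid handling, and for many of them no function is known.

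Gene counts ranged from 25575016 to 30110400 per library. The share of mitochondrially encoded genes was 6.9 and 7.38% in WT replicates 1 and 2 and 13.63 and 8.98% in PA replicates 1 and 2. Pcca itself was lower in PA by value only (log2 fold change PA minus WT -0.55, with a standard error, SE, of 0.22; edgeR quasi-likelihood test, adjusted p = 0.398), and a gene-level count does not tell the A138T transcript from a normal one. The nearest of the lincRNAs to Pcca, Gm10076, lies 16.9 Mb away. Hepatocyte markers fit the labelled tissue. Alb was at 130580 and 149440 CPM (counts scaled to library size) in WT and at 120640 and 147200 CPM in PA. By value, 6 of the 7 hepatocyte markers were higher and 1 was lower in PA, with a median log2 fold change of 0.39. EdgeR called 0 of them, and DESeq2 called 2 higher. The pancreatic acinar markers Cpa1, Pnlip and Ctrb1 had no counts in any library. Cela2a, the other acinar marker listed, was low, at 0.456 and 0.432 CPM in WT and 0.707 and 0.202 CPM in PA. Summed Kupffer cell markers, led by Clec4f and Cd5l, stood at 572.6 and 494.8 CPM in WT and 252.8 and 352.3 CPM in PA. Summed B cell markers, led by Ighm and Ms4a1, stood at 15.06 and 12.61 CPM in WT and 3.219 and 5.721 CPM in PA. Summed erythroid markers, led by Hbb-bs and Alas2, stood at 84.54 and 45.71 CPM in WT and 11.54 and 16.12 CPM in PA, and 2 of the 4 tested were called lower. Endothelial markers summed to 224.6 and 208.3 CPM in WT and 171.9 and 179.4 CPM in PA (median log2 fold change -0.11). Stellate sums overlapped, at 353.0 and 363.0 CPM in WT and 387.7 and 351.1 CPM in PA (median -0.12). Cholangiocyte markers summed to 34.26 and 48.23 CPM in WT and 29.8 and 32.47 CPM in PA. By value, 4 of those 5 were higher in PA, with a median of 0.65. EdgeR called 0 in each of these lists. In these bulk samples, fewer cells of a type and less RNA per cell cannot be told apart.

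A few of the lincRNAs carried a large share of the lincRNA signal, and the sum was lower in both PA livers. The TPM of the 161 genes summed to 2559 and 2336 in WT and to 1212 and 1255 in PA. The PA sums were thus below both WT sums, with no test made on a sum over chosen genes. Without Gm6135, AW112010 and 1810008I18Rik the sums were 1537 and 1387 in WT and 1050 and 1036 in PA. As a share of strand-specific gene counts, the 161 genes took 0.226 and 0.203% in WT and 0.155 and 0.146% in PA. The TPM sums include Gm47162, whose TPM is uncertain. TPM and CPM also need not move alike. The splicing factor gene Srsf1 was at 54.5 and 45.9 TPM in WT and 33.3 and 45.5 TPM in PA. Its CPM were 74.5 and 75.8 in WT and 93.7 and 107 in PA. Whether the TPM scale differs between the groups was not tested. The 5 most abundant lincRNAs of each library held 51.4 and 52.9% of the TPM sum in WT and 39.2 and 37.7% in PA. The mean TPM over 4 libraries had a median of 2.74 across the lincRNAs, 25 had at least 10, and 5 had at least 100.

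Gm6135 was the most abundant lincRNA of WT replicate 1, at 451 TPM, and was at 312 TPM in WT replicate 2. In PA it was at 17.2 and 29.8 TPM, far below both WT livers. AW112010, the most abundant lincRNA of WT replicate 2, was at 431 and 454 TPM in WT and at 116 and 122 TPM in PA. Gm10076, a single-exon gene that RefSeq lists as a pseudogene, led both PA libraries at 168 and 133 TPM, against 133 and 112 TPM in WT. Its groups overlapped in CPM. 1810008I18Rik was at 139 and 183 TPM in WT and at 29.0 and 67.1 TPM in PA. Gm8883 was at 89.3 and 69.9 TPM in WT and at 23.9 and 48.4 TPM in PA. Both of these were lower in each PA liver than in either WT liver, and neither passed the test on counts. 1810058I24Rik, which encodes the mitochondrial micropeptide Stmp1 and which RefSeq lists as protein-coding, was at 52.7 and 68.4 TPM in WT and at 38.0 and 41.9 TPM in PA. Its CPM values overlapped between the groups. Gm27216 ranged from 55.5 to 61.6 TPM in WT and from 33.6 to 46.8 TPM in PA. Gm48633 ranged from 59.1 to 60.2 TPM in WT and from 30.4 to 32.6 TPM in PA. Neither Gm27216 nor Gm48633 was called by edgeR on counts. AC138228.2 was at 57.5 and 30.9 TPM in WT and at 34.8 and 26.5 TPM in PA, so its groups overlapped. Gm47162, listed at 162 and 174 TPM in WT and 118 and 102 TPM in PA, had 1 count on its own strand and 2814 on the other strand over the 4 libraries. It overlaps the pseudogene Scp2-ps2 on the other strand, which had 4347 strand-specific counts, so the TPM of Gm47162 is uncertain.

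**Figure D1:**
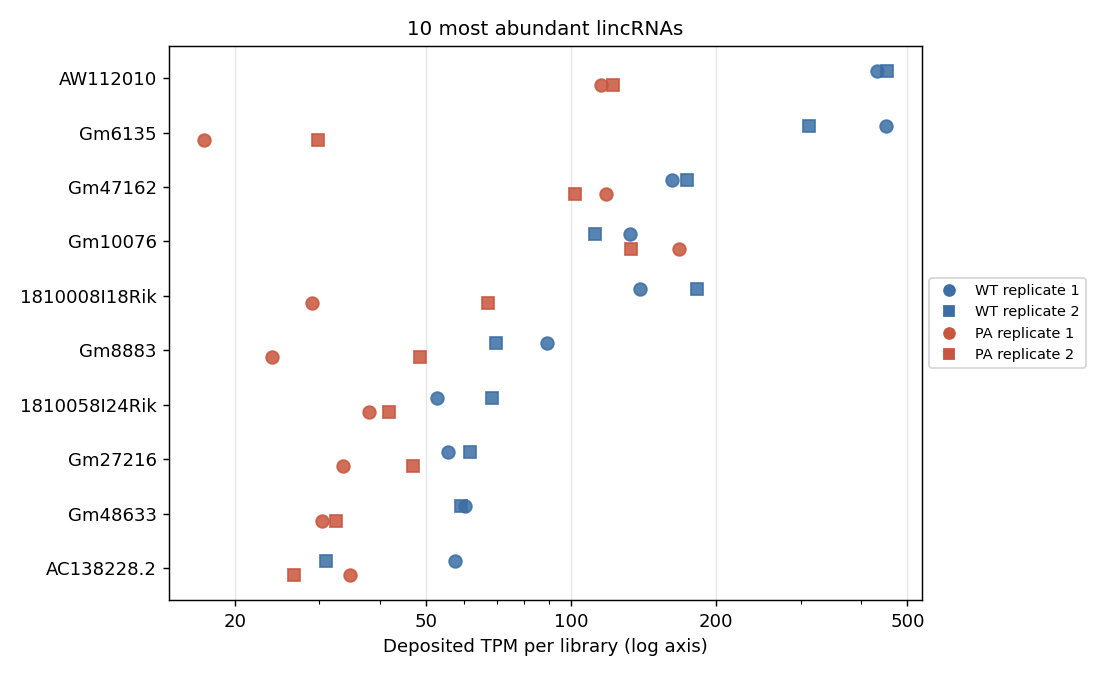
Deposited TPM on a log axis for the 10 lincRNAs with the highest mean TPM, 1 point per library, circles and squares for replicates 1 and 2 of WT (blue) and PA (red). Gm6135 and AW112010 stand at 312 to 454 TPM in WT, above all their PA values, and Gm10076 is the only one of the 10 with both PA values at or above its WT values.

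Strand-specific counts gave a test for 154 of the 161 lincRNAs. Of those tested, 1 was called higher and 4 were called lower in PA (edgeR quasi-likelihood test, adjusted p under 0.05). Over all 14411 genes tested, 0.264% were called higher, 0.548% lower and 0.812% in either direction, and the share for the tested lincRNAs was 3.25%. These counts come from the libraries whose levels chose the lincRNAs, so they are given as a description. At an unadjusted p under 0.05, 7 lincRNAs were higher and 32 lower, beside 5.88% and 5.93% of all genes. CPM of the 2 groups did not overlap for 21 lincRNAs that were higher and 55 that were lower in PA, beside 21.3% and 21.9% of all genes. The median log2 fold change was -0.29 for the tested lincRNAs and 0.01 for all genes. Fits without a library moved the calls, with 4 higher and 9 lower once PA replicate 2 was left out, 1 and 13 once PA replicate 1 was left out, and 1 and 8 once WT replicate 2 was left out.

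Lower values were also counted among lincRNAs above the TPM level in both groups. Of 105 tested lincRNAs with at least 1 TPM in all 4 libraries, 0 were called higher and 2 lower. At an unadjusted p under 0.05, 3 of them were higher and 20 lower, and the median log2 fold change was -0.26. Of the 132 lincRNAs below the TPM level that still had enough counts for the test, edgeR called 0, limma-voom 1 (higher) and DESeq2 3 (1 higher and 2 lower). At an unadjusted p under 0.05, 7 of these were higher and 9 lower, and the median was -0.05. The lincRNAs that entered through WT alone gave 2 lower calls among 34 tested. Those that entered through PA alone gave 1 higher call among 15 tested. The last 2 sets were bound to lean toward the group they entered through.

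**Figure D2:**
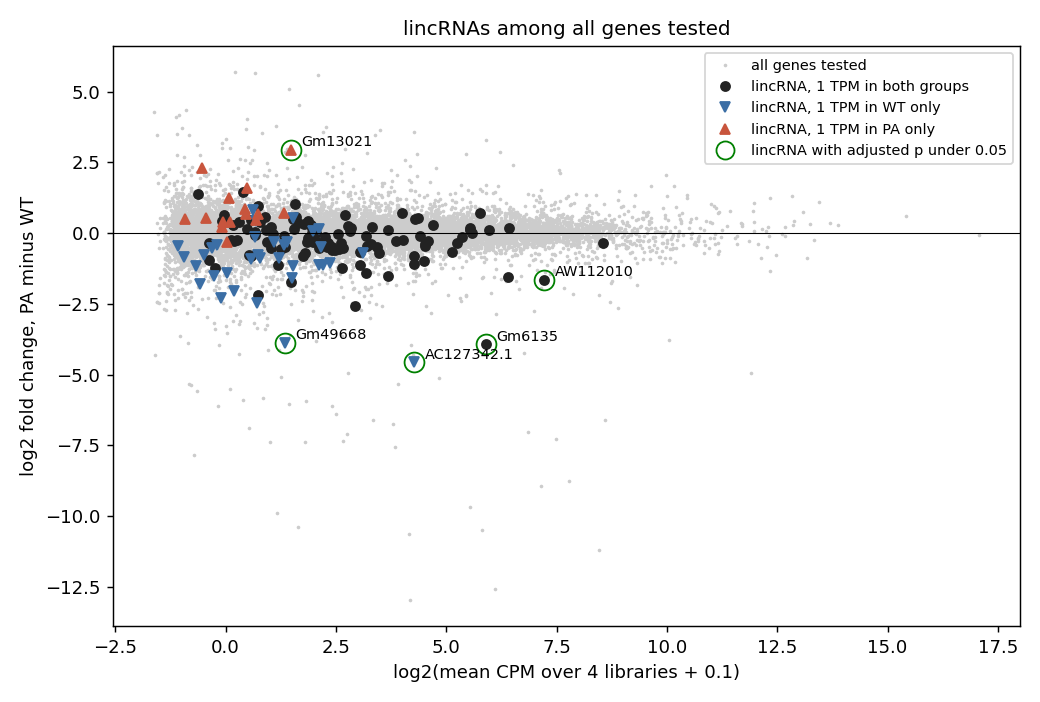
Log2 fold change of PA against WT (vertical axis) by mean abundance, as log2 of the mean CPM over the 4 libraries plus 0.1 (horizontal axis), for the 14411 tested genes (grey) and the 154 tested lincRNAs, marked by the group in which they reached 1 TPM. The 5 circled lincRNAs had an adjusted p under 0.05: Gm13021 lies above 0, and Gm6135, AW112010, Gm49668 and AC127342.1 lie below it.

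Gm6135 (chromosome 3, 133789515 to 133791504, minus strand, GRCm38) is a 3-exon gene with a single annotated transcript. It was read at 129 and 93.1 CPM in WT and at 5.85 and 8.75 CPM in PA. Both WT livers were therefore above both PA livers, by more than the spread within either pair. It averaged 111 ± 25.5 CPM in the WT pair and 7.30 ± 2.05 CPM in the PA pair (SD, n = 2 each), and the log2 fold change came to -3.93 (SE 0.30; adjusted p = 0.00261 by edgeR). Gm6135 was called in every alternative that was run. Its nearest coding gene is Tet2, which encodes an enzyme that oxidises 5-methylcytosine in DNA. Tet2 starts 246365 bp away and gave a log2 fold change of -0.16 (SE 0.29; adjusted p = 0.884 by edgeR). The annotated transcript is short, at 372 nt, and its nt 75 to 372 are printed because this RNA had the smallest p of the lincRNAs. The longest reading frame that opens with an ATG, shown in capitals, starts at nt 135 and runs 79 codons to the end of the annotated transcript without a stop codon.
Gm6135: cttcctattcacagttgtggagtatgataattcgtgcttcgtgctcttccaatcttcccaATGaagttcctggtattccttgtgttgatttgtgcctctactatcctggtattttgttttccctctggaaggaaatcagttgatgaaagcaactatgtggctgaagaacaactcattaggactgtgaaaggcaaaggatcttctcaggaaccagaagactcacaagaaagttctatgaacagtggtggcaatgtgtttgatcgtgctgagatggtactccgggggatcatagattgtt

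Gm13021 (chromosome 4, 140422524 to 140431931, plus strand) was the 1 lincRNA called higher in PA. It entered through the PA libraries alone, which partly fixes its direction, at 7.11 and 9.03 TPM there and 1.19 and 0.77 TPM in WT. On counts it was at 0.554 and 0.668 CPM in WT and at 4.91 and 4.58 CPM in PA, so the groups were far apart and each pair was close. The log2 fold change came to 2.95 (SE 0.31; adjusted p = 0.0103 by edgeR), and it was called in every alternative that was run. The nearest coding gene, Igsf21, an immunoglobulin superfamily gene, had 1 count in WT and 5 in PA and was not tested. The single annotated transcript of Gm13021 has 407 nt, and its longest ATG-initiated frame starts at nt 175 and holds 55 codons. It is shown for the 1 lincRNA that rose, as nt 115 to 407 with that ATG in capitals.
Gm13021: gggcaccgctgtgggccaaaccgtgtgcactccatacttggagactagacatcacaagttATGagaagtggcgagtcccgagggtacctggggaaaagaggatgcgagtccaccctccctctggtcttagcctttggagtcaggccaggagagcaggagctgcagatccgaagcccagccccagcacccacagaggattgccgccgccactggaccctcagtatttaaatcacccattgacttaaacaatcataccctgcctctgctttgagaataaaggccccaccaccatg

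AW112010 (chromosome 19, 11047612 to 11055808, minus strand) is an interferon- and endotoxin-responsive transcript of immune cells that is known to be translated in macrophages despite its non-coding annotation. It was read at 215 and 237 CPM in WT and at 78.2 and 65.1 CPM in PA, with no overlap between the groups. It averaged 226 ± 15.3 CPM in the WT pair and 71.7 ± 9.31 CPM in the PA pair (SD, n = 2 each), and the log2 fold change came to -1.66 (SE 0.23; adjusted p = 0.0298 by edgeR). Without WT replicate 2 the adjusted p was 0.0595. Summed markers of Kupffer cells, B cells, neutrophils and T and NK cells were all lower by value in both PA livers than in both WT livers. Of 7 tested Kupffer cell markers edgeR called 0 and DESeq2 called 2 lower (Clec4f and Cd5l), 4 were lower at an unadjusted p under 0.05, and the median log2 fold change was -0.66. Of 5 tested B cell markers edgeR called 0 and DESeq2 called 1 lower (Ighm), and 3 were lower at an unadjusted p under 0.05, with a median of -1.26. Summed T and NK cell markers were at 6.292 and 5.341 CPM in WT and 5.30 and 4.31 CPM in PA, with 4 of 5 tested lower by value and a median of -0.56. Summed neutrophil markers were at 6.52 and 3.26 CPM in WT and 2.984 and 1.817 CPM in PA, with a median of -1.14 over 2 tested. The part of these cells in the AW112010 values was not tested. Its neighbour Gm28347, on the same strand and within 100 kb, was at 0.848 and 0.943 CPM in WT and 0.196 and 0.303 CPM in PA (log2 fold change -1.81, SE 0.47; adjusted p = 0.184 by edgeR). The nearest coding gene, Ms4a8a, of a family of membrane proteins, was at 1.08 and 1.41 CPM in WT and 1.10 and 0.942 CPM in PA, with overlapping groups (log2 fold change -0.28, SE 0.36; adjusted p = 0.822 by edgeR). Of the 2 annotated AW112010 transcripts, that of 770 nt has a longest ATG-initiated frame of 78 codons from nt 171, and that of 625 nt has one of 60 codons from nt 75. Which frame is translated was not measured. The shorter transcript is shown, as nt 15 to 314 with that ATG in capitals.
AW112010: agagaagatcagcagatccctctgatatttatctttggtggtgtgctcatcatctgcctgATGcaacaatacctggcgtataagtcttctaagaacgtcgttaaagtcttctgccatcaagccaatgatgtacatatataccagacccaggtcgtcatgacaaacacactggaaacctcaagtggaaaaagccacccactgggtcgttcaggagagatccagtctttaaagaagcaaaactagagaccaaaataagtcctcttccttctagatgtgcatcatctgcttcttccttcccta

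AC127342.1 (chromosome 18, 46630807 to 46642970, plus strand) had the largest fold change of the 5 called lincRNAs and the widest spread. It entered through the WT libraries alone, at 26.4 and 8.04 TPM there and 0.87 and 0.24 TPM in PA, so its direction is partly fixed by the choice. It was read at 55.6 and 17.7 CPM in WT and at 2.43 and 0.707 CPM in PA. The lower WT liver was still above the higher PA liver. The log2 fold change came to -4.57 (SE 0.71; adjusted p = 0.0472 by edgeR), and it ranged from -5.68 without PA replicate 1 through -5.15 without WT replicate 2 and -3.91 without PA replicate 2 to -3.52 without WT replicate 1. The call was lost with a filter of 1 CPM in 2 libraries (adjusted p = 0.0574), with limma-voom (0.0692) and on RSEM expected counts (0.0577). The nearest coding gene, Eif1a, which encodes a translation initiation factor, gave a log2 fold change of 0.38 (SE 0.28; adjusted p = 0.666 by edgeR).

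Gm49668 (chromosome 17, 15421802 to 15434965, minus strand) overlaps the coding gene Fam120b, which runs on the opposite strand. It entered through the WT libraries alone, at 2.06 and 1.18 TPM there and 0.25 and 0.39 TPM in PA, so its direction too is partly fixed by the choice. On its own strand it was read at 5.67 and 3.46 CPM in WT and at 0.196 and 0.404 CPM in PA. Both PA values lay below the WT values, and the log2 fold change came to -3.89 (SE 0.46; adjusted p = 0.0175 by edgeR). Without PA replicate 2 it was -4.51. Over the 4 libraries 279 counts lay on the strand of Gm49668 and 351 on the other strand, that of Fam120b. The count column without strand held only 121 counts for Gm49668, fewer than either strand alone, so it is not the sum of the 2 strands. On that column the log2 fold change was -1.46 (adjusted p = 0.276 by edgeR). On RSEM expected counts it was -1.91 (adjusted p = 0.14 by edgeR). Fam120b was at 15.0 and 20.2 CPM in WT and at 19.5 and 22.2 CPM in PA (log2 fold change 0.24; adjusted p = 0.742 by edgeR).

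**Figure D3:**
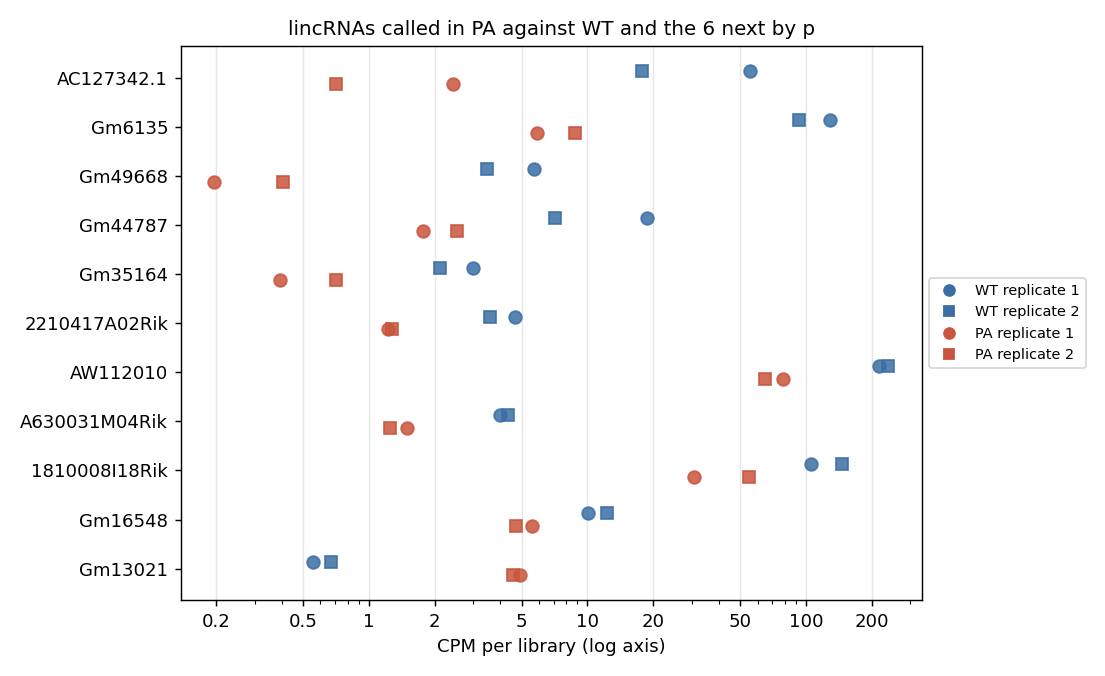
CPM on a log axis, 1 point per library, for the 5 called lincRNAs and the 6 that follow by p, ordered by log2 fold change, with circles and squares for replicates 1 and 2 of WT (blue) and PA (red). In all 11 the 2 groups are apart, with PA lower in 10 and higher in Gm13021. The 11 were chosen by p in these same libraries, which favours groups that are apart.

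**Figure D4:**
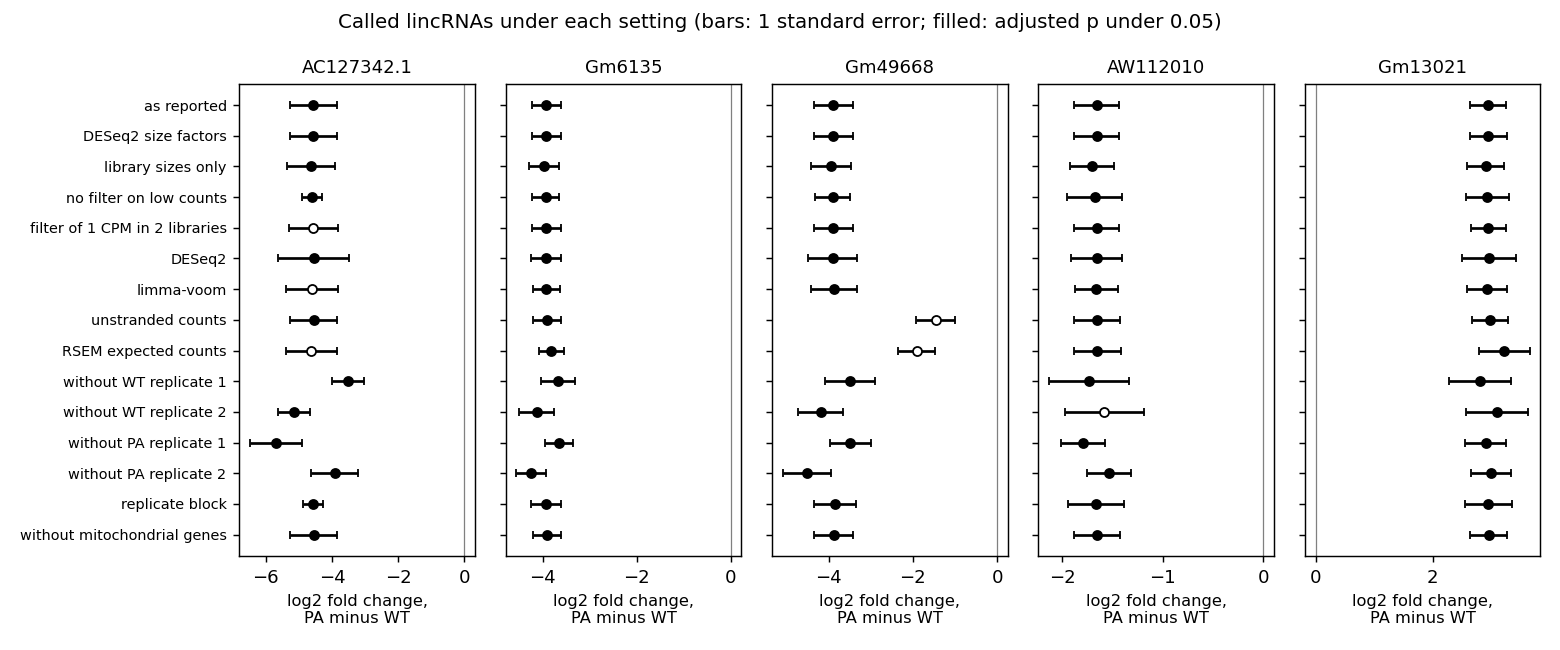
Log2 fold change of PA against WT with bars of 1 standard error for the 5 called lincRNAs under each alternative, filled where the adjusted p was under 0.05. Gm6135 and Gm13021 are filled in every row, and Gm49668 moves to -1.46 and -1.91 where the strand is not used.

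The 6 lincRNAs that followed by p were all lower by value in both PA livers than in both WT livers, and none passed the threshold. A choice by p favours such separation, and 21.9% of all genes tested were lower in PA without overlap. 2210417A02Rik was at 4.66 and 3.57 CPM in WT and at 1.22 and 1.28 CPM in PA (log2 fold change -1.72; adjusted p = 0.0614 by edgeR). A630031M04Rik entered through the WT libraries alone, so its direction is partly fixed by the choice. It was at 3.98 and 4.32 CPM in WT and at 1.49 and 1.25 CPM in PA (log2 fold change -1.60, adjusted p = 0.0672 by edgeR). In these 2 lincRNAs each pair of livers was close. Gm44787 was at 18.7 and 7.07 CPM in WT and at 1.77 and 2.52 CPM in PA, with a wide WT pair (log2 fold change -2.58; adjusted p = 0.0777 by edgeR). Gm35164 was at 2.999 and 2.12 CPM in WT and at 0.393 and 0.707 CPM in PA (log2 fold change -2.20; adjusted p = 0.082 by edgeR). The abundant 1810008I18Rik was at 105 and 147 CPM in WT and at 30.7 and 54.6 CPM in PA (log2 fold change -1.56; adjusted p = 0.107 by edgeR). Gm16548, which is antisense to the coagulation factor gene F5 and overlaps it and Selp, was at 10.1 and 12.3 CPM in WT and at 5.57 and 4.71 CPM in PA (log2 fold change -1.12; adjusted p = 0.107 by edgeR). F5 itself was at 271 and 379 CPM in WT and 253 and 386 CPM in PA (log2 fold change -0.03). DESeq2 called all 6 of them, in a fit that called 186 higher and 256 lower genes in all.

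Among the lincRNAs found in lists of known non-coding RNAs, none was called by edgeR, limma-voom or DESeq2. Malat1, a nuclear speckle RNA, was at 55.0 and 31.2 CPM in WT and at 39.5 and 59.1 CPM in PA, so its groups overlapped. Neat1, the scaffold of paraspeckles and a genomic neighbour of Malat1, was at 62.2 and 19.7 CPM in WT and at 44.7 and 90.1 CPM in PA. It too overlapped, with its lowest value in WT replicate 2 and its highest in PA replicate 2 (log2 fold change 0.72, SE 0.54; adjusted p = 0.671 by edgeR). Of 34 tested genes for protein partners of lincRNAs, 0 were called by edgeR, limma-voom or DESeq2, 0 were higher and 1 was lower at an unadjusted p under 0.05, and the median log2 fold change was 0.07. The 3 partner genes with the smallest p were the splicing factor genes Hnrnph3 (log2 fold change -0.86; adjusted p = 0.232 by edgeR), Srsf3 (0.47; 0.435) and Srsf1 (0.41; 0.49). Of 25 tested genes for nuclear RNA decay, 0 were called by any of the 3 tools, 2 were higher and 1 lower at an unadjusted p under 0.05, and the median was 0.07. The exosome subunit genes Exosc4 (0.62; adjusted p = 0.298 by edgeR) and Exosc3 (0.59; 0.319) and the exosome-targeting gene Zfc3h1 (-0.56; 0.323) had the smallest p in that list.

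The 3 lincRNAs of the X inactivation centre spanned 22.5 to 46.1 TPM for Xist, 2.18 to 3.27 TPM for Jpx and 1.39 to 1.91 TPM for Ftx over the 4 libraries. Xist, which silences an X chromosome in females, was at 452 and 391 CPM in WT and at 311 and 351 CPM in PA. Both PA values were below both WT values, and the difference did not pass the test (log2 fold change -0.35, SE 0.23; adjusted p = 0.63 by edgeR). Jpx, an activator of Xist, was at 2.80 and 2.12 CPM in WT and at 2.67 and 1.95 CPM in PA. Ftx, another positive regulator of Xist and a host of microRNAs, was at 4.11 and 3.50 CPM in WT and at 3.97 and 3.67 CPM in PA. The groups of Jpx and Ftx overlapped.

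2900097C17Rik, the mouse counterpart of NORAD, an RNA that binds Pumilio proteins, was nearly level across the livers. It was at 47.8 and 48.2 CPM in WT and at 45.0 and 51.5 CPM in PA (log2 fold change 0.01, SE 0.19; adjusted p = 0.994 by edgeR). Its sign changed between alternatives. Its annotated transcript of 4915 nt held 11 matches to TGTANATA, the Pumilio element, searched on the transcript strand. That was 2.238 per kb and the most of the 95 lincRNAs with a transcript of at least 1000 nt, whose median was 0 matches. The first 3 matches are printed in capitals within 30-nt windows to show the element; they are matches of letters, with no binding measured.
2900097C17Rik window 1: tagaagtcctgTGTATATAatatgaaaaag
2900097C17Rik window 2: agtaaacatgcTGTAAATAcctttttgtta
2900097C17Rik window 3: tggcttttcttTGTACATAgtgtatgtaaa

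1700020I14Rik, known as Cyrano, an RNA that triggers the decay of a microRNA, was at 77.7 and 83.0 CPM in WT and at 96.4 and 86.3 CPM in PA. Its groups did not overlap, and the log2 fold change of 0.19 (SE 0.20; adjusted p = 0.781 by edgeR) was far from the threshold. Gm14005, known as Morrbid, which regulates the survival of myeloid cells, was at 1.27 and 0.746 CPM in WT and at 0.942 and 0.707 CPM in PA. Bvht, known from heart development, ranged from 0.511 to 1.04 CPM in WT and from 0.707 to 1.14 CPM in PA. Lncbate1, known from brown fat, ranged from 0.391 to 1.296 CPM in WT and from 0.841 to 1.37 CPM in PA. The groups overlapped for these 3 low lincRNAs.

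Hosts of snoRNAs are spliced transcripts whose introns give rise to snoRNAs, which guide the modification of ribosomal RNA. None of the 4 lincRNA hosts in the list was called. Snhg6 was at 11.2 and 13.8 CPM in WT and at 9.23 and 8.45 CPM in PA, without overlap (log2 fold change -0.50, SE 0.22; adjusted p = 0.431 by edgeR). Snhg12 was at 3.59 and 4.12 CPM in WT and at 4.28 and 3.57 CPM in PA. Snhg20 was at 4.08 and 3.50 CPM in WT and at 4.08 and 2.62 CPM in PA. Epb41l4aos was at 4.56 and 6.36 CPM in WT and at 6.05 and 2.52 CPM in PA. Only Snhg6 of these 4 kept the groups apart. Over the whole list of snoRNA hosts, which adds genes of other biotypes, 17 were tested, 0 were called by edgeR or limma-voom and 1 by DESeq2 (Snhg11, higher), 2 were higher and 0 lower at an unadjusted p under 0.05, and the median log2 fold change was 0.08.

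Several of the lincRNAs contain a microRNA gene. AC157910.3 spans Mir122, the microRNA of hepatocytes, and was at 23.2 and 9.70 CPM in WT and at 28.0 and 20.2 CPM in PA. The WT pair was wide and overlapped the PA pair (log2 fold change 0.55, SE 0.40; adjusted p = 0.659 by edgeR). E130102H24Rik, which spans Mir101a, was at 3.94 and 4.01 CPM in WT and at 4.67 and 3.40 CPM in PA. AL805899.1, which spans Mir31, was at 1.47 and 0.903 CPM in WT and at 0.981 and 1.01 CPM in PA. Both overlapped between the groups. 2900076A07Rik, which spans Mir1839, was at 2.67 and 1.92 CPM in WT and at 1.73 and 1.48 CPM in PA, apart but not called (adjusted p = 0.595 by edgeR). Polyadenylated host RNA was counted here, and the mature microRNAs were not measured. Of 10 tested lincRNAs with a snoRNA, scaRNA or microRNA inside them, 0 were called by edgeR, limma-voom or DESeq2, none reached an unadjusted p under 0.05, and the median log2 fold change was -0.09. The mature microRNAs of 2 hosts are given from RefSeq (GRCm38.p6), with the seed, bases 2 to 8, in capitals. They lie at chr4:101346957-101346977 and chr4:88910614-88910635, both on the minus strand, and do not share a seed.
mmu-miR-101a-3p: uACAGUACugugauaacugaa
mmu-miR-31-5p: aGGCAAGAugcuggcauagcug

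C730036E19Rik, which RefSeq gives as lncLSTR, is a liver lincRNA known to act on triglyceride clearance through the bile acid enzyme gene Cyp8b1. It entered through WT, by TPM, so its direction is partly fixed by the choice. On counts it was at 6.98 and 6.64 CPM in WT and at 2.79 and 3.70 CPM in PA. The groups were apart, and the difference did not pass the threshold (log2 fold change -1.07, SE 0.26; adjusted p = 0.156 by edgeR). Cyp8b1 was at 93.9 and 107 CPM in WT and at 58.0 and 10.3 CPM in PA, a wide PA pair below the WT pair (log2 fold change -1.56, SE 0.66; adjusted p = 0.426 by edgeR). Apoc2, a gene of triglyceride clearance, ranged from 0.864 to 1.24 CPM in WT and from 0.538 to 1.02 CPM in PA, with overlapping groups (log2 fold change -0.45, SE 0.45; adjusted p = 0.767 by edgeR). Apoc2 shares its strand and most of its span with Gm44805, and reads that fit both genes are not counted, so this value is uncertain. The list for metabolic non-coding RNAs of liver held none of the 161 lincRNAs, and its 1 tested gene, Gm16551, was at 17.02 and 6.48 CPM in WT and at 0.589 and 5.25 CPM in PA. None of the tested imprinted non-coding RNAs of the list belonged to the 161 either, and 0 of those 5 were called by edgeR, limma-voom or DESeq2, with 2 higher and 0 lower at an unadjusted p under 0.05.

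The lincRNAs lay a median of 26.8 kb, start to start, from the nearest coding gene, and at most 896 kb. The nearest coding gene ran on the same strand for 85 of them, divergently for 55 and in another opposite arrangement for 21. Within 2000 bp of a coding start lay 20 lincRNAs, of which 14 were divergent. Of 128 tested neighbours, 1 was called, beside 0.775% of all coding genes tested. That neighbour was Fam198a, at 15.5 and 8.99 CPM in WT and at 2.51 and 1.95 CPM in PA (log2 fold change -2.46, SE 0.34, adjusted p = 0.0298 by edgeR). The lincRNA beside it, 1700048O20Rik, was at 0.815 and 0.196 CPM in WT and at 0.746 and 0.774 CPM in PA, with overlapping groups (log2 fold change 0.55; adjusted p = 0.793 by edgeR). None of the 14 divergent lincRNAs within 2000 bp was called by edgeR, limma-voom or DESeq2, 2 were lower at an unadjusted p under 0.05, and their median log2 fold change was -0.16.

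Fold changes of lincRNAs and of their nearest coding genes moved together only weakly. Over 124 pairs with both genes tested, Pearson's r was 0.10 and Spearman's rho 0.19, and 69 pairs had the same sign. Over the 27 pairs with starts within 5000 bp, r was 0.35 and rho 0.36, and 15 pairs had the same sign. Both genes of a pair were read in the same 4 libraries, and some pairs share reads or a neighbour, so these values are a description over genes. Mkln1os starts 38 bp from Mkln1 and had a log2 fold change of 1.58 (adjusted p = 0.292 by edgeR), beside 0.17 for Mkln1. Gm48633 starts 27587 bp from Apob, the gene of the main lipoprotein of liver, and had a log2 fold change of -0.68 (adjusted p = 0.22 by edgeR), beside 0.08 for Apob. 9030622O22Rik starts near Foxa2, a gene of a liver transcription factor, and had a log2 fold change of -0.68 (adjusted p = 0.525 by edgeR), beside 0.40 for Foxa2. Gm8883 starts 234912 bp from the fibronectin gene Fn1 and had a log2 fold change of -0.99 (adjusted p = 0.201 by edgeR), beside -0.36 for Fn1.

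**Figure D5:**
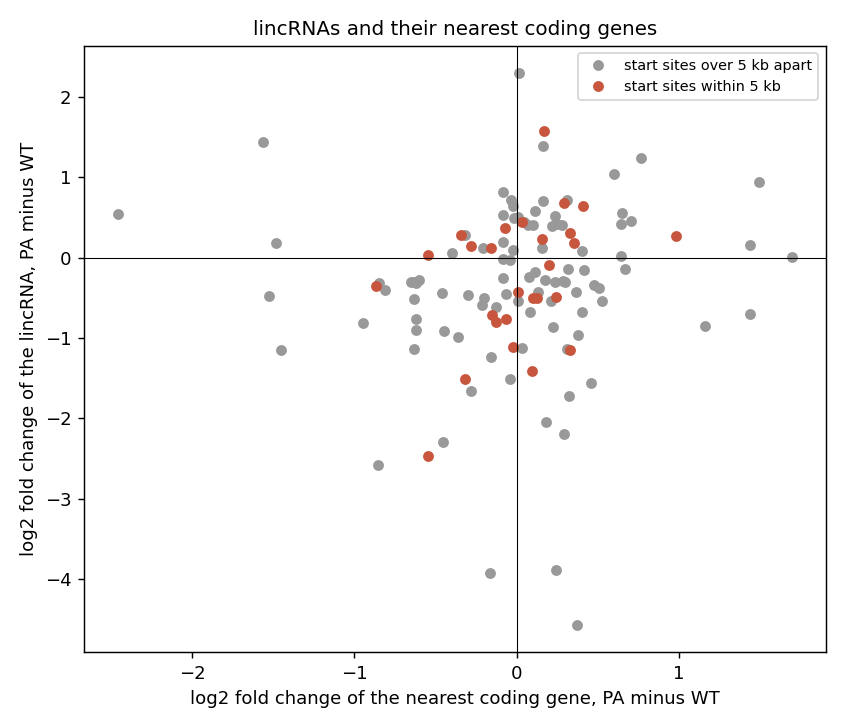
Log2 fold change of each lincRNA (vertical axis) against that of its nearest coding gene (horizontal axis), both PA against WT, for the 124 pairs with both genes tested, in red where the starts are within 5 kb. The points spread around the origin, with r of 0.10 over all pairs and 0.35 over the 27 red ones, and the tested neighbours of the 4 lincRNAs called lower (Gm6135, Gm49668, AW112010 and AC127342.1) lie between -0.28 and 0.38.

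Some of the lincRNAs are close to each other. A run of 4 on chromosome 13 (E430024I08Rik, Gm47467, Gm47469 and Gm46430, from 74434781 to 74617945, all on the minus strand) had log2 fold changes of -0.52, -1.13, -0.31 and -0.45, and none was called. Gm32540, Gm45044 and Gm2814 on chromosome 8 had -0.89, -0.76 and -0.31, with overlapping groups in each. C730027H18Rik is given as 2 overlapping gene identifiers, which can share reads, with log2 fold changes of 0.70 and 1.39.

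The lincRNAs differed from coding genes in build. Their median exonic length was 1444 bp with 3 exons, and 15 (9.32%) had a single exon. Coding genes selected by the same TPM rule had a median of 4320 bp and 9 exons, with 1.53% single-exon, and the lincRNAs below the level had 991 bp and 5.47%. Of the 13 tested single-exon lincRNAs, 0 were called by edgeR, limma-voom or DESeq2, 1 was higher and 1 lower at an unadjusted p under 0.05, and the median log2 fold change was 0.21. RefSeq held 110 of the symbols, 100 as long non-coding RNA, 7 as protein-coding and 3 as pseudogenes. The RefSeq coding entries include Gm20939, Gm5165 and Gm46430, so for these genes the non-coding label is not shared by the 2 annotations. The longest ATG-initiated frame of a lincRNA transcript had a median of 68 codons, and 24 lincRNAs had 100 codons or more, the longest being 918 in Gm37494.

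RefSeq promoter sequences, 300 bases around the start, were matched for 86 symbols, and 76 of them began within 1000 bp of the annotated lincRNA start. Of the 5 called lincRNAs, Gm49668 was among those 76, and its window held none of the elements named here except AGATAA. On either strand, the C/EBP element TTGCNNAA was in 17.1% of the 76 and in 10.8% of all 32851 promoters, and TATAAA was in 17.1% and 13.6%. CCAAT was in 42.1% and 37.4%, the E-box CACGTG in 9.21% and 7.15%, and the STAT element TTCNNNGAA in 6.58% and 8.3%. The interferon-stimulated response element was in 1.32% and 3.44%, TGACNNNGC in 7.89% and 12.4%, and AGATAA in 7.89% and 11.2%. These are matches of letters, and neither factor binding nor histone acylation was measured in these libraries.

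Strand matters for transcripts that overlap others. Of the 161 lincRNAs, 125 had over 99% of their stranded counts on their own strand, and 9 had more counts on the other strand. Gm30097 overlaps the fibrinogen gene Fgg, where 95655 counts lay on the other strand, and its deposited TPM of 5.58 and 5.71 in WT and 2.28 and 2.60 in PA came with only 0.510 to 0.880 CPM on its own strand. Fgg was at 6555 and 5056 CPM in WT and 3579 and 2774 CPM in PA (log2 fold change -0.87; adjusted p = 0.325 by edgeR). The 7 lincRNAs without a test were Gm20649, Gm28872, Gm28901, Gm42031, Gm47162, Gm48228 and Gm49207, which had 0 to 27 counts on their own strand over the 4 libraries. For these the deposited TPM is the one measure of level, and it was made without regard to strand.

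The lincRNAs varied more between the PA livers than between the WT livers. The median absolute log2 ratio of the 2 libraries of a group was 0.52 in PA and 0.36 in WT over 154 lincRNAs. By over 1, 31 lincRNAs differed in PA and 13 in WT, with no test made. The same spread is not given over all genes, so it is not shown to be particular to lincRNAs. The widest were Gm32540 in PA (2.36) and Gm15611 in WT (2.41). At the TPM level that chose the lincRNAs, Gm32540 and A930038B10Rik entered with a deciding value of 1.01 TPM and Gm15675 with 1.04 TPM, and Gm38102 (0.97), Gm37027 (0.96) and 4632404H12Rik (0.96) stayed out.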

How the data were processed

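PolyA RNA of 2 WT and 2 PA livers was sequenced, with groups and replicate numbers from the sample titles. The authors deposited raw gene counts from STAR 2.7.6a, in columns without strand and for either strand, and a table that per the file headers gives expected counts, TPM and FPKM from RSEM 1.3.3. The programs and the build GRCm38 stand in the submitters' processing notes. The annotation and the strand setting of RSEM were not given in the sources used here. The values of some genes show that strand was not used: Mfsd4a had 1 count on its own strand, 918 on the other and 686 RSEM expected counts. Among 8 genes checked, 4 had RSEM expected counts above 0.2 of their other-strand counts. The rest had few or none, such as mt-Tp with 18461 other-strand counts and 0 RSEM expected counts. The FPKM values deposited by the authors were not used.

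The strand column with 96.96 to 97.08% of stranded counts was tested. Lines that name no gene were left out of tests and library sizes; they held 28.1 to 34.3% of the reads, 9.11 to 13.53% by mapping to several places. STAR leaves such reads out, so near-identical copies can be undercounted. Of the gene identifiers, 55227 matched GENCODE vM21 and 260 did not. Counts of all genes passing filterByExpr (14411) were tested with edgeR 4.0.16 in R 4.3.3 (quasi-likelihood test, TMM, prior count 0.125), and p-values were Benjamini-Hochberg adjusted with a threshold of 0.05. CPM use TMM-scaled library sizes, on which 3 counts are 0.0996 to 0.117 CPM. A standard error is the log2 fold change over the root of the F statistic. Alternatives used DESeq2 1.42.0, limma 3.58.1, other scalings, filters, count columns, TPM levels and fewer libraries. Tables were joined with pandas 2.3.3 in Python 3.11.15, and the fit was tested on simulated counts.

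The lincRNAs, gene lists and tests were chosen with earlier results of these data known. Named were the called lincRNAs, the 10 most abundant by mean TPM, those in the lists of known non-coding RNAs, the 6 next by p, and those beside a called coding gene, with the coding neighbours of the called ones and the markers and list genes described. C730036E19Rik, AC157910.3, 1700020I14Rik, Gm14005, Lncbate1, E130102H24Rik, AL805899.1, 2900076A07Rik, Gm28347, 9030622O22Rik, Gm30097, Mkln1os, the genomic runs, Cyp8b1, Apoc2 and the other coding neighbours were named after their values were seen. The replicate numbers are not said to mark litters or days, so the main fit did not pair the mice by them. Deviations of same-numbered libraries from their group means correlated at -0.0907. With 2 libraries a group this single value cannot exclude pairing or a shared batch.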

Additional observations from a re-analysis of the deposited data

Results flagged for a closer look

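The 3 lincRNAs given here each had 1 measure outside the strand-specific counts that was higher in both PA than in both WT libraries. They are examples, since Gm13021, at 7.11 and 9.03 TPM in PA and 1.19 and 0.77 TPM in WT, did so too. How many lincRNAs or genes did so on these measures was not counted. On strand-specific CPM, 21.3% of all genes tested were higher in both PA libraries. Gm28901 had other-strand counts of at least 0.154 CPM in PA and at most 0.135 CPM in WT, which is 4 counts in each of those 2 libraries. Its RSEM expected counts did not follow, at 74.37 and 46.04 in WT and 6.59 and 50.04 in PA. Gm16973 had other-strand counts of at least 3.04 CPM in PA and at most 2.54 CPM in WT. Gm42031, without enough strand-specific counts for the test, had RSEM expected counts, scaled to CPM, of at least 2.88 in PA and at most 1.5 in WT. Gm42031 also had 0 counts on the other strand in each library. Its RSEM values thus rest mainly on reads counted for it on neither strand, and its level is uncertain. These differences were not tested.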

How the results depend on the processing

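Of the 5 called lincRNAs, Gm6135 and Gm13021 were called in every alternative. Gm49668 lost its call with unstranded counts (log2 fold change -1.46) and RSEM expected counts (-1.91), AW112010 without WT replicate 2 (-1.58), and AC127342.1 with the filter of 1 CPM (-4.56), limma-voom (-4.60) and RSEM expected counts (-4.62). The calls for lincRNAs, 1 higher and 4 lower, became 4 and 27 with no filter on low counts, 1 and 13 with DESeq2, 1 and 2 on RSEM expected counts, and 0 and 2 with at least 1 TPM required in all 4 libraries, which leaves fewer genes. Leaving out 1 library gave 1 to 4 higher and 6 to 13 lower lincRNAs. The calls for all genes, 38 higher and 79 lower, became 414 and 488 with no filter and 186 and 256 with DESeq2, and ranged from 50 to 239 higher and 105 to 261 lower without 1 library. With the replicate number as a block they were 126 and 192, and 1 and 13 for lincRNAs. The cause of these moves was not tested. A fit without 1 library has 1 mouse in a group, assumed to vary like the other group, so calls gained there add no support.

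The alternatives were followed gene by gene for 40 named lincRNAs, of which 5 were called, and signs changed only among those not called. With library sizes only, Snhg12 (-0.020), E130102H24Rik (-0.028), 2900097C17Rik (-0.039) and Ftx (-0.045) turned negative. With no filter, 2900097C17Rik (-0.0085) and Ftx (-0.013) did, with limma-voom E130102H24Rik (-0.0048), and with unstranded counts Ftx (-0.017). Without 1 library, the log2 fold change ranged on both sides of 0 for 14 of the 40: from -0.091 to 1.92 for 1700048O20Rik, -0.096 to 0.11 for 2900097C17Rik, -0.70 to 0.16 for AC138228.2, -0.55 to 0.13 for AL805899.1, -0.18 to 0.83 for Bvht, -0.22 to 0.23 for E130102H24Rik, -1.10 to 0.15 for Epb41l4aos, -0.098 to 0.12 for Ftx, -0.62 to 0.13 for Gm14005, -0.33 to 0.11 for Jpx, -0.24 to 1.49 for Lncbate1, -0.15 to 0.66 for Malat1, -0.10 to 0.15 for Snhg12 and -0.52 to 0.11 for Snhg20. With 2 mice a group and counts near 1 CPM for many lincRNAs, the lack of a call leaves the size of a change unknown.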
